A study of Homo sapiens with 6 samples.

Results

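Kruppel-like factors (KLFs) are transcription factors that bind GC-rich and CACCC-type DNA through zinc fingers at their carboxy terminus. Their amino-terminal parts recruit coactivators or corepressors, so that some members mainly switch genes on and others mainly repress them. KLF10 and KLF11 are also called TGF-beta-inducible early genes, because ligands of the TGF-beta family can raise their mRNA within hours in several cell types. In breast cancer the family is known for members that promote growth, such as KLF5, and for members described as tumor suppressors, such as KLF6.

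Here 10 KLF genes were followed in SUM-LM1 cells, a lung-metastatic derivative of the human breast cancer line SUM159. The 10 genes were KLF2, KLF3, KLF4, KLF5, KLF6, KLF7, KLF9, KLF10, KLF11 and KLF13, and every probe set of a human expression array that carried one of these symbols alone was taken. This gave 32 probe sets out of 54613 tested, for 10 genes out of 19775 with a name. The 3 cultures of the activin B group received recombinant activin B, a homodimer of the INHBB protein and a ligand of the TGF-beta family, at 50 ng per ml for 6 h. The 3 cultures of the vehicle group received BSA in PBS for the same 6 h, and both groups grew unattached, in ultra-low attachment wells with HuMEC medium, BSA and 12500 cells in each ml. For every culture 5% FBS and a preculture day of 1 were also recorded. Replicates are described as biological, p-values measure the spread between these arrays, and the study used 1 derived line and 1 time point.

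Values are log2 signals, on which a difference of 1 is a doubling, and log2 changes are activin B minus vehicle. The array medians lay between 6.69 and 6.70, and differences near that level are compressed by the processing. Activin B replicate 3 stood apart on the first principal component (29.5% of the variance), at 21.7, with the other 5 arrays between -10.6 and 5.70. VIM, a mesenchymal filament, had a signal of 13.90 in activin B and 13.89 in vehicle in 1 set. It had 6.88 and 6.90 in the other, 1555938_x_at, a set of a type that may cross-hybridise. The keratin KRT18 had 11.99 in activin B and 12.09 in vehicle, in a set of the same type (201596_x_at). Of 4 luminal breast markers, ESR1 and PGR averaged at most 6.84 in activin B and 6.81 in vehicle, whereas the highest set of GATA3 had 7.43 in activin B and 7.45 in vehicle and that of ERBB2 8.07 in activin B and 7.96 in vehicle. The cells responded to the ligand, since ID1, an inhibitor of DNA binding, rose by 2.25 on the log2 scale (limma, adjusted p = 7.74e-08). ID1 was picked for this check with its response on these arrays already known.

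No KLF probe set passed an adjusted p under 0.05 (limma with Benjamini-Hochberg adjustment over all probe sets), 0 of 32, while 66 of all probe sets did (0.121%). The smallest adjusted p among the 32 was 0.777, for KLF10. At an unadjusted p under 0.05 there were 3 KLF probe sets (9.38%), for KLF10, KLF13 and KLF6, beside 5.28% of all probe sets. Activin B and vehicle values did not overlap in 2 KLF probe sets (6.25%), beside 9.79% of all. The log2 changes ran from -0.20 to 0.21, with 15 above 0 and 17 below, and their median was 0.00, as it was over all probe sets. Their median size without sign was 0.071, beside 0.048 over all probe sets. Among sets above the median signal, to which 24 of the 32 belonged, it was 0.088, beside 0.051 over all such sets. Each of the 32 intervals of 95% lay inside a change of 0.5 in either direction, which is 1.41-fold. Of the 32 sets 8 lay at or below the median signal, where differences are compressed, and their intervals bound the measured signal only. The smallest rise that passed the test anywhere on the array was 0.367, so that a change of the size read for KLF10 would not have been called at this precision.

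**Figure D1:**
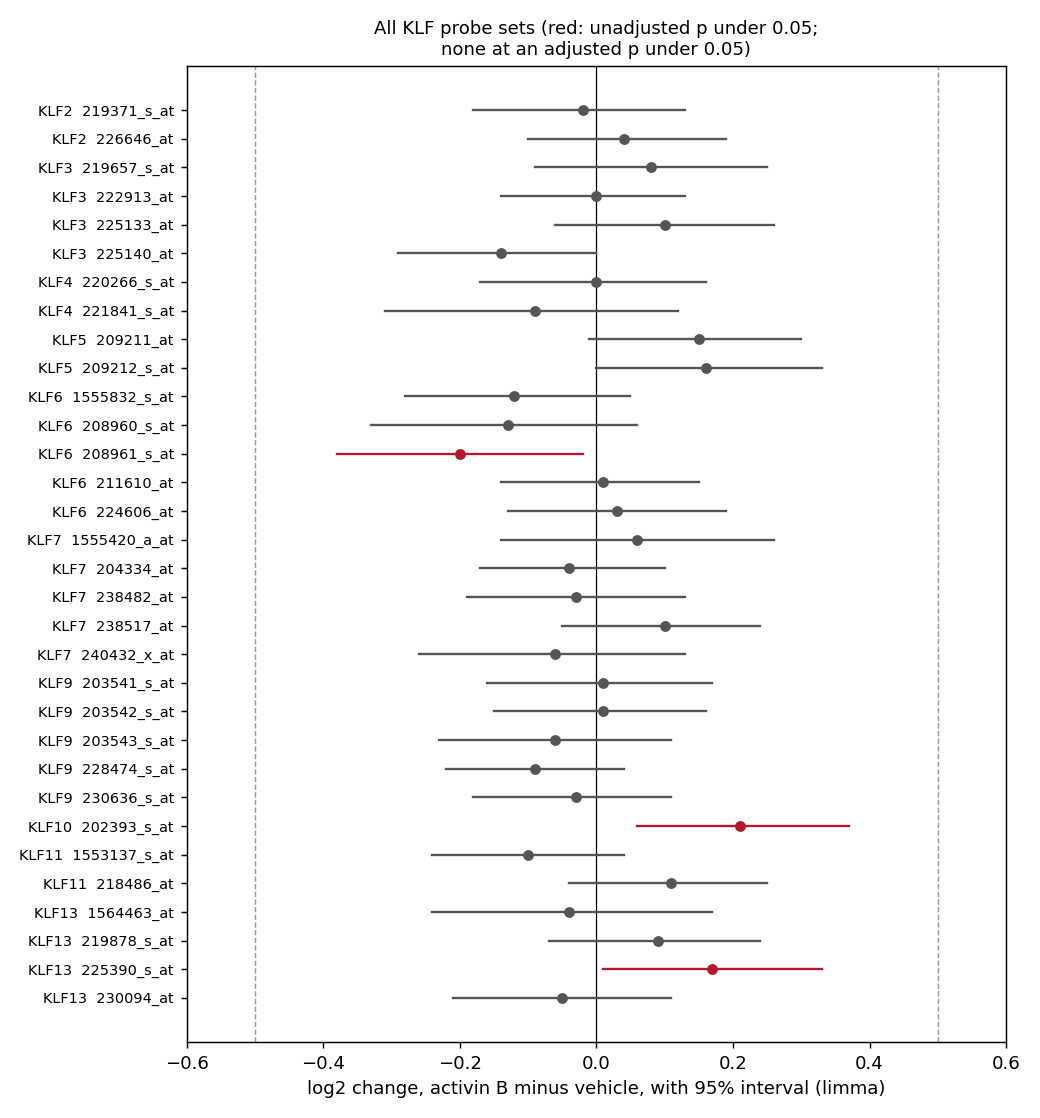
Log2 change of each of the 32 KLF probe sets, activin B minus vehicle (x axis), with its 95% interval from limma; rows are probe sets ordered by gene. Red marks the 3 with an unadjusted p under 0.05, and dashed lines mark 0.5 in either direction; the values run from -0.20 for a KLF6 set to 0.21 for KLF10 and no interval reaches a dashed line.

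KLF10, a repressor that recruits SIN3 and is known to be induced by TGF-beta, showed the largest difference upwards of the 32. Its only probe set (202393_s_at) had signals of 9.48, 9.43 and 9.24 in activin B, against 9.14, 9.13 and 9.24 in vehicle. Replicates 1 and 2 of activin B lay above every vehicle value, whereas replicate 3 lay at the level of vehicle replicate 3. The mean was 9.38 ± 0.12 in activin B and 9.17 ± 0.06 in vehicle (SD, n = 3 each), a 1.16-fold difference. The log2 change of 0.21 ± 0.07 (SE) had an interval from 0.06 to 0.37 and did not pass (unadjusted p = 0.0112; adjusted p = 0.777), and 786 probe sets had a smaller p. Without activin B replicate 3, the array that stood apart, the log2 change of KLF10 was 0.28 (adjusted p = 0.32), and without each other array it lay between 0.16 and 0.25. The place of that array in the KLF10 result was not tested beyond these values.

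KLF11, the second gene of the TGF-beta-inducible pair and also a SIN3-binding repressor, was read by 2 probe sets that differed in sign. The first (218486_at) gave 7.26, 7.09 and 7.24 in activin B, against 7.11, 7.02 and 7.13 in vehicle. The second (1553137_s_at), below the array median, gave 6.25, 6.17 and 6.27 in activin B, against 6.41, 6.32 and 6.27 in vehicle. Both sets overlapped between the groups. Their log2 changes were 0.11 ± 0.07 and -0.10 ± 0.06 (SE; adjusted p = 0.989 and 0.995), and the mean of both sets had a log2 change of 0.01 ± 0.05.

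**Figure D2:**
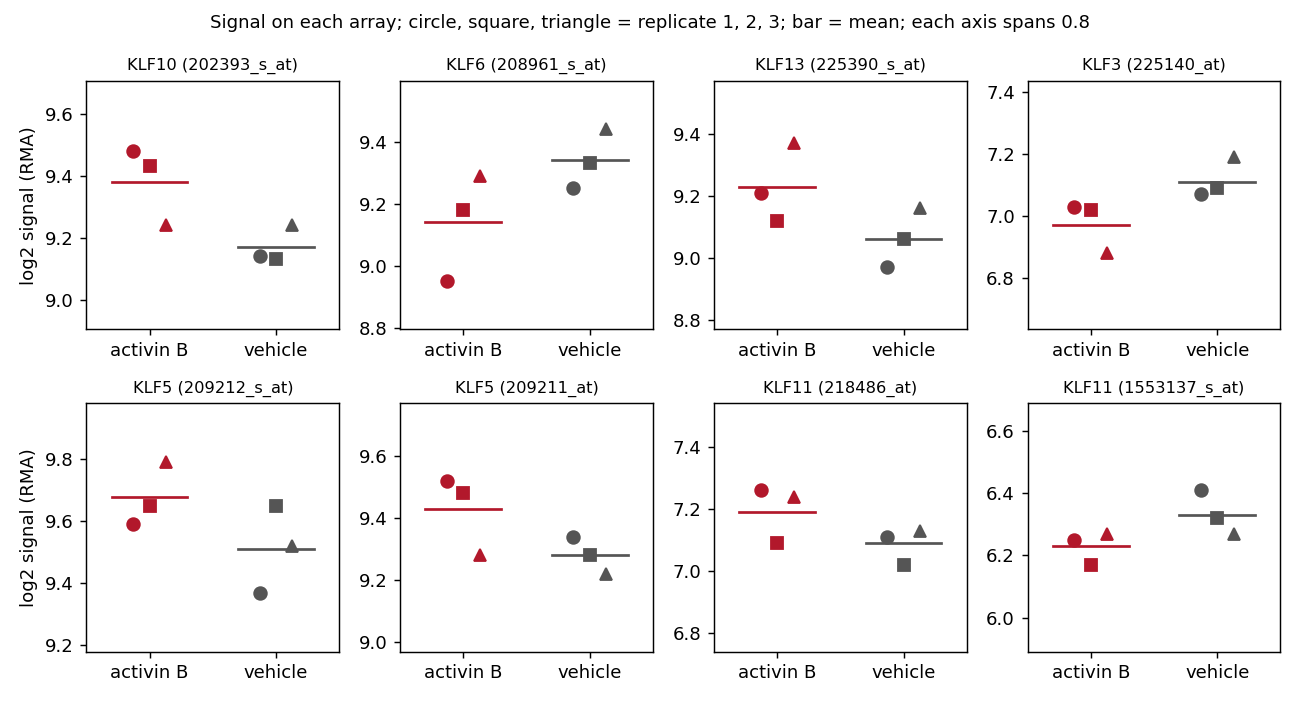
Log2 signal of each array (y axis) for the 8 KLF probe sets with the smallest p, activin B in red on the left and vehicle in grey on the right; symbols are replicates, bars are group means, and each axis spans 0.8. Activin B replicate 3 (triangle) of KLF10 lies at 9.24, level with vehicle replicate 3, and the groups overlap in 7 of the 8 panels, the exception being KLF3.

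KLF9 and KLF13 belong with KLF10 and KLF11 to the SIN3-binding branch of the family. KLF13, known in lymphocytes as an activator of the chemokine gene CCL5, had a probe set with higher values on average in activin B (225390_s_at), and its gene lies on chromosome 15, from 31326835 to 31435665 (GRCh38.p14). Its signals were 9.21, 9.12 and 9.37 in activin B, against 8.97, 9.06 and 9.16 in vehicle. Activin B replicate 2 lay below vehicle replicate 3, so the groups overlapped. The log2 change was 0.17 ± 0.08 (SE; unadjusted p = 0.0423; adjusted p = 0.934). It was 0.10 without activin B replicate 3, the lowest of the 6 omissions, and 0.23 without activin B replicate 2, the highest. The other 3 KLF13 sets, 219878_s_at, 1564463_at and 230094_at, had log2 changes of 0.09, -0.04 and -0.05, and the mean over all 4 sets had a log2 change of 0.04 ± 0.06 (SE).

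KLF9, which glucocorticoid and thyroid hormone are known to induce, was read by 5 probe sets, and its log2 changes lay between -0.09 and 0.01, and the 5 sets had signals from 6.53 to 7.81. One set (228474_s_at) did not overlap between the groups, with 6.77, 6.73 and 6.74 in activin B, against 6.79, 6.91 and 6.80 in vehicle. Its activin B values were lower by 0.09 on average, an amount that did not pass (adjusted p = 0.995).

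KLF3 is a repressor that acts through the corepressor CtBP. Its 4 probe sets, 225133_at, 219657_s_at, 222913_at and 225140_at, had log2 changes of 0.10, 0.08, 0.00 and -0.14. The set with the lowest change (225140_at) was the other one of the 32 without overlap, with 7.03, 7.02 and 6.88 in activin B, against 7.07, 7.09 and 7.19 in vehicle (log2 change -0.14 ± 0.07, SE; adjusted p = 0.952). The KLF3 set with the highest signals (225133_at) differed in the opposite direction, with 8.72, 8.57 and 8.47 in activin B, against 8.55, 8.51 and 8.41 in vehicle, and overlapped. The mean over the 4 KLF3 sets had a log2 change of 0.01 ± 0.05 (SE).

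KLF5 is an activator of epithelial growth genes whose protein ubiquitin ligases keep short-lived, and its gene lies on chromosome 13, from 73054976 to 73077538 (GRCh38.p14). It was read by 2 probe sets, both higher in activin B on average. One set (209211_at) gave 9.52, 9.48 and 9.28 in activin B, against 9.34, 9.28 and 9.22 in vehicle. The other (209212_s_at) gave 9.59, 9.65 and 9.79 in activin B, against 9.37, 9.65 and 9.52 in vehicle. Activin B replicate 3 was the lowest activin B array in the first set and the highest in the second. The log2 changes were 0.15 ± 0.07 and 0.16 ± 0.08 (SE; adjusted p = 0.959 and 0.957), and the mean of both sets had a log2 change of 0.15 ± 0.05 (unadjusted p = 0.00783; adjusted p = 0.57 over 19775 genes). Without activin B replicate 3 the log2 changes were 0.22 and 0.11.

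KLF6, which is known to activate genes of the TGF-beta pathway and the cell cycle inhibitor CDKN1A, had the largest difference downwards of the 32, in 1 of 5 probe sets. The gene lies on chromosome 10, from 3775996 to 3785209 (GRCh38.p14). That set (208961_s_at) gave 8.95, 9.18 and 9.29 in activin B, against 9.25, 9.33 and 9.44 in vehicle. Only activin B replicate 3 reached into the vehicle range, and the mean was 9.14 ± 0.17 in activin B and 9.34 ± 0.10 in vehicle (SD, n = 3 each). Each activin B value lay below the vehicle value of the same replicate number, although no pairing is stated. The log2 change of -0.20 ± 0.08 (SE) had an interval from -0.38 to -0.02 (unadjusted p = 0.0313; adjusted p = 0.914). It was -0.11 without activin B replicate 1 and -0.27 without activin B replicate 3, the extremes over the 6 omissions. With the replicate number as a block it was -0.20 (limma, unadjusted p = 0.00713; adjusted p = 0.498). A second set (208960_s_at) and 1555832_s_at had log2 changes of -0.13 and -0.12, and the last 2 sets, 224606_at and 211610_at, of 0.03 and 0.01. Probe sets of KLF6 thus did not give 1 value for the gene, and averaging them gave -0.08 ± 0.06 (SE; adjusted p = 0.964).

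**Figure D3:**
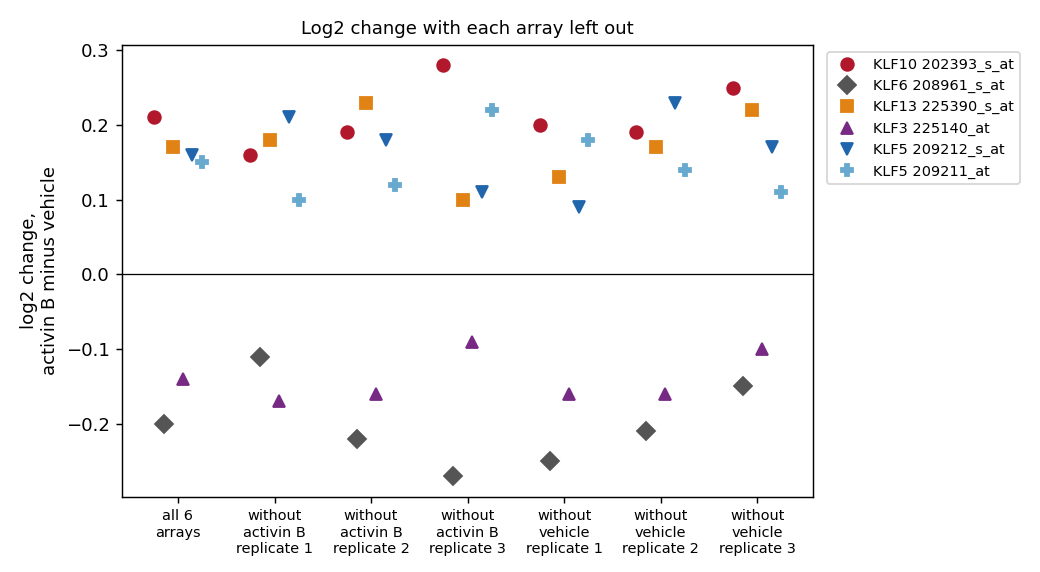
Log2 change, activin B minus vehicle (y axis), of the 6 KLF probe sets with the smallest p, with all 6 arrays and with each array left out (x axis). KLF10 ranges from 0.16 to 0.28 and KLF6 from -0.27 to -0.11; none of the 6 changes sign.

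For KLF10, the member with the smallest p, no stretch that ended at its annotated start was at hand. The stretches before the annotated starts of KLF6 and KLF13 are shown because these members had an unadjusted p under 0.05 in opposite directions. Each is the run of 250 bases upstream of the gene start in RefSeq on GRCh38.p14, read 5′ to 3′ on the strand of the gene, at chr10:3785210-3785459 (minus strand) for KLF6 and at chr15:31326585-31326834 (plus strand) for KLF13. Capitals mark GTCT or its other strand AGAC, the core of the DNA element that SMAD proteins bind.
KLF6: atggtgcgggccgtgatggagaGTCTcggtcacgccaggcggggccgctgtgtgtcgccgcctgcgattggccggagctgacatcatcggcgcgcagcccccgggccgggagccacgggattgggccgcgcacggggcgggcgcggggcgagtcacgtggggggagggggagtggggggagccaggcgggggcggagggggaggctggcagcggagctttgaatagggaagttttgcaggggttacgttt
KLF13: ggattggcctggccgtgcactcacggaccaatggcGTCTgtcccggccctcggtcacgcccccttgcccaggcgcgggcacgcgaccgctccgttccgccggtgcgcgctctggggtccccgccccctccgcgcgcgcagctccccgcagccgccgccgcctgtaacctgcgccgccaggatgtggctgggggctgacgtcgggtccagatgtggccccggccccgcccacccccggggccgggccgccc

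Each of the 2 stretches held 1 such core, starting 228 bases before the start of KLF6 and 215 bases before that of KLF13. Of 6 members with a stretch that ended at their annotated start, 4 held the core (KLF5, KLF6, KLF9 and KLF13), beside 77.5% of 35116 stretches of this length. The GC box GGGCGG or CCGCCC, to which SP and KLF proteins are known to bind, was found in KLF2, KLF4, KLF6 and KLF13, 4 of 6, beside 42.6% of all stretches. The counts of this box were 4, 4, 2 and 3. CACCC or GGGTG was found in 2 of 6, KLF5 and KLF13, beside 54.7%. These matches describe the letters only, and CCGCCC can overlap CACCC.

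KLF2 and KLF4 are known for their role in quiescent vessels, and KLF4 also as a reprogramming factor. The 2 sets of KLF2 had signals between 6.53 and 7.01, close to the array median, and log2 changes of -0.02 and 0.04. The brighter KLF4 set (221841_s_at) gave 8.24, 8.30 and 8.58 in activin B, against 8.30, 8.41 and 8.69 in vehicle. In both groups its replicate 3 was the highest array, and the log2 change was -0.09 ± 0.10 (SE; adjusted p = 0.995). The other KLF4 set had a log2 change of 0.00 ± 0.08 (SE).

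Markers of endothelial cells, in which KLF2 and KLF4 are best known, were read on the same arrays. None of 11 probe sets for PECAM1, CDH5, VWF, TEK and KDR passed, and CDH5, a cadherin of endothelial junctions, lay at 6.10 in activin B and 6.08 in vehicle, under the array median. PECAM1, an adhesion molecule also found on blood cells, lay above the median in 4 of 5 sets. Its set 208981_at gave 7.49, 7.50 and 7.48 in activin B, against 7.70, 7.89 and 7.89 in vehicle (log2 change -0.34; unadjusted p = 0.000165; adjusted p = 0.109). A second PECAM1 set, 208982_at, was also lower without overlap (log2 change -0.19; adjusted p = 0.874). In the set 1559921_at the groups did not overlap in the opposite direction, with activin B higher (log2 change 0.08; adjusted p = 0.995). The sets 1558397_at and 208983_s_at overlapped, with log2 changes of 0.08 and -0.07. Over all probe sets, 9.79% did not overlap. Sets of VWF, TEK and KDR averaged at most 6.60 in activin B and 6.70 in vehicle, near the array median or under it. The summed linear signal of the 11 sets was 1303 to 1335 in activin B and 1376 to 1437 in vehicle. The part of this sum in the KLF2 and KLF4 values was not tested. KLF7, known for roles in neurons, had 5 probe sets with signals from 6.36 to 7.09 and log2 changes between -0.06 and 0.10 (adjusted p between 0.995 and 0.999). The extremes of KLF7 were -0.06 in 240432_x_at, which may cross-hybridise, and 0.10 in 238517_at, and the set with the highest signals, 204334_at, had -0.04. Of these KLF7 sets 2 lay above the median signal, so a small change of KLF7 could be missed.

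Related genes were counted as well. The 7 other KLF genes measured (18 probe sets) had log2 changes between -0.11 and 0.13, and none passed; KLF14, KLF12 and KLF16 had 0.11, 0.13 and -0.04 in their sets with the smallest p, and each had another set with the opposite sign. None of 8 SP genes, the closest relatives of the KLF family, passed in 19 probe sets. SP8, SP4 and SP1, the last a ubiquitous GC-box activator, had log2 changes of 0.16, 0.15 and -0.14 in their sets with the smallest p (unadjusted p = 0.0219, 0.0294 and 0.0351; adjusted p = 0.878, 0.909 and 0.928). Other sets of the same genes had the opposite sign, with -0.08 for SP8, -0.10 for the brighter SP4 set and 0.10 for an SP1 set. The remaining SP1 sets had -0.10 and -0.01, the same sign as the first. None of 12 corepressors and coactivators passed in 33 probe sets. FHL3, a KLF3 cofactor with 1 set, had a log2 change of 0.14 (adjusted p = 0.957). SAP30 and SIN3B, subunits of the SIN3 complex, had 0.18 and 0.09 in their sets with the smallest p (adjusted p = 0.959 and 0.995). The other SAP30 sets had 0.10, -0.02 and -0.10, and the other SIN3B sets had 0.00 and -0.11. Groups did not overlap in the SAP30 set at 0.10 and in the SIN3B set at 0.09.

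Upstream of the family, none of 12 regulators passed in 42 probe sets. FBXW7, a ubiquitin ligase subunit that targets KLF5, gave in 1 of 4 sets 9.07, 9.24 and 9.05 in activin B, against 9.27, 9.36 and 9.48 in vehicle, without overlap (log2 change -0.25 ± 0.07, SE; adjusted p = 0.592), and its other sets had -0.15, -0.04 and 0.02. The thyroid hormone receptor THRB and the kinase MAP2K5, which acts upstream of KLF2 and KLF4, had log2 changes of 0.21 and 0.13 in the set with the smallest p of each (adjusted p = 0.614 and 0.959). Their other sets ran from -0.10 to 0.05 for THRB and from -0.03 to 0.11 for MAP2K5. The groups did not overlap in the THRB sets at 0.21 (207044_at) and -0.10 (229657_at), nor in the MAP2K5 set at 0.11 (216435_at). Of 16 genes described as KLF targets, SMAD7 alone passed. SMAD7, an inhibitory SMAD that KLF10 is known to repress, rose to 8.79, 8.73 and 8.65 in activin B, against 8.07, 8.14 and 8.06 in vehicle, without overlap (log2 change 0.63 ± 0.06, SE; adjusted p = 0.000313). CDKN1A, PLAU and CCL5, described as targets of KLF4, KLF6 and KLF13, had log2 changes of 0.23, -0.24 and -0.18 in the set with the smallest p of each and did not pass (adjusted p = 0.668, 0.698 and 0.778). CDKN1A had no other set, the other PLAU set had -0.12, and the other CCL5 sets had -0.10 and -0.01.

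Early targets of TGF-beta signaling were read on the same arrays. Of 19 measured early target genes, SMAD7, the corepressor SKIL and the decoy receptor BAMBI rose in 1 probe set each (log2 change 0.63, 0.66 and 0.51; adjusted p = 0.000313, 0.00142 and 0.0108), none fell, and 16 had no probe set that passed. At an unadjusted p under 0.05 there were 15 of their 43 probe sets (34.9%), 14 of them higher in activin B, against 3 of 32 KLF probe sets (9.38%). The medians were 0.07 for these targets and 0.00 for the KLF members, and no test was made between both lists, which were chosen with results of these arrays known. PMEPA1, JUNB and IL11, which did not pass, had log2 changes of 0.33, 0.31 and 0.30 in the set with the smallest p of each (adjusted p = 0.161, 0.173 and 0.375), and the second IL11 set had 0.02. The other PMEPA1 sets had 0.27 and 0.16 (adjusted p = 0.173 and 0.919). The other 4 SKIL sets had log2 changes between -0.05 and 0.21 and did not pass. With vehicle replicate 2 left out, BAMBI did not pass (log2 change 0.47; adjusted p = 0.135).

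**Figure D4:**
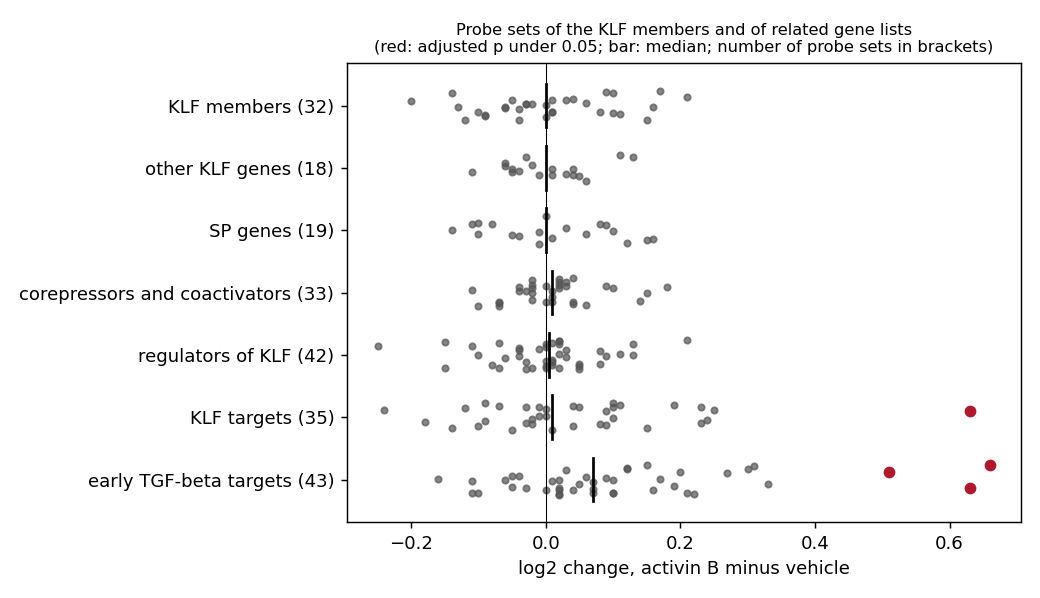
Log2 change, activin B minus vehicle (x axis), of each probe set of the KLF members and of 6 related gene lists (rows, number of probe sets in brackets). Red points passed an adjusted p under 0.05 and bars are medians; the red points are SMAD7, in 2 lists, SKIL and BAMBI, and no KLF point is red.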

How the data were processed

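The authors normalized the scanner files of 6 arrays by robust multiarray averaging in Chipster 3.8.0 and deposited log2 signals per probe set, a step that equalizes the distributions of the arrays. Neither scanner files nor scan dates entered the work. After 62 control sets were left out, gene names came from the platform annotation, in which 41091 carried 1 gene symbol, 1801 several and 11721 none. RefSeq names of GRCh38.p14 changed no symbol.

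Activin B was set against vehicle with limma 3.58.1 (R 4.3.3, empirical Bayes moderation, 4 residual and 10.8 prior degrees of freedom). P-values were adjusted over all 54613 probe sets, and a call needed an adjusted p under 0.05. Number of arrays limits the precision. The limma fit alone was tested on simulated data with independent noise. That test did not require recovery of changes as small as those of the KLF sets.

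All member probe sets were named, and of each related list the called genes and up to 3 others with the smallest p. Members and lists were chosen with earlier results of these data known. Some listed genes are not reported here. Alternatives were a replicate block, a filter on dim probe sets, median centring, cyclic loess, a trended robust prior, array weights, other gene summaries and leaving out each array. Figures were drawn with matplotlib 3.10.9.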

Additional observations from a re-analysis of the deposited data

How the results depend on the processing

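The count of 0 KLF probe sets passing held under all 12 other fits, with a smallest adjusted p of 0.32 over them, and 0 of 10 genes passed with the brightest probe set or the mean of all probe sets per gene. At an unadjusted p under 0.05 the count was 3. Same-numbered arrays deviated together only weakly (correlation 0.16, 0.04 and 0.19), although each array correlated best with its own number. With the replicate number as a block, 5 KLF sets had an unadjusted p under 0.05, none passed, 97 sets passed in all, and 44 of these were lower in activin B, against 26 without the block. Leaving out 1 array moved the number of all sets passing to between 32 and 63, of higher ones to between 25 and 50 and of lower ones to between 7 and 26. Direction was stable in 16 KLF sets and changed in 16, none of which changed by more than 0.09 with all arrays. Median centring gave 0.00 for KLF3 222913_at and 0.00 for KLF4 220266_s_at, and array weights gave 0.00 and 0.01.

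Log2 changes with 1 array left out ran from -0.08 to 0.05 and -0.01 to 0.08 for the KLF2 sets 219371_s_at and 226646_at, -0.04 to 0.04 for KLF3 222913_at, and -0.07 to 0.08 and -0.20 to 0.02 for KLF4 220266_s_at and 221841_s_at. They ran from -0.03 to 0.05 and -0.03 to 0.09 for KLF6 211610_at and 224606_at, and from -0.06 to 0.15, -0.09 to 0.04 and -0.17 to 0.01 for KLF7 1555420_a_at, 238482_at and 240432_x_at. For KLF9 203541_s_at, 203542_s_at, 203543_s_at and 230636_s_at they ran from -0.04 to 0.08, -0.06 to 0.07, -0.12 to 0.02 and -0.08 to 0.01, and for KLF13 1564463_at and 230094_at from -0.14 to 0.10 and -0.11 to 0.01. The causes were not tested. With 3 arrays per group, changes under about 0.37 were not called.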
